A study of Mus musculus with 20 samples.

Results

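The cap-binding eIF4 factors and the eIF4E-binding proteins were followed in mouse liver after siRNA against Eif3m, a subunit of the translation initiation factor eIF3. The group was chosen by name, with earlier results of these data known. It holds 10 genes of the 38784 symbols in the deposited table: Eif4e, Eif4e2, Eif4a1, Eif4a2, Eif4g1, Eif4g2, Eif4g3, Eif4b, Eif4ebp1 and Eif4ebp2. All 10 were present in the table and all 10 passed the filter on low counts in every comparison. FVB/N mice aged 6 to 8 weeks received siRNA in lipid nanoparticles (LNP) into the tail vein at 0.5 mg/kg, with 1 injection in 5 days. The control groups received a scrambled luciferase siRNA in the same formulation, and the treated groups an Eif3m siRNA. Livers were taken at day 9 (3 mice per siRNA) or day 13 (2 mice per siRNA), and each of the 10 livers gave an RNA library and a ribosome footprint library. The agent is a knockdown in a whole organ, so some Eif3m transcript remained and every value is a mixture over the cell types of the liver. In such bulk samples, fewer cells of a type and less RNA per cell cannot be told apart.

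The eIF4F complex brings the small ribosomal subunit to the capped end of an mRNA. In it, eIF4E holds the cap, eIF4A is the RNA helicase that opens structure near the cap, and eIF4G is the scaffold that binds both and also contacts eIF3 on the ribosome; eIF4B stimulates the helicase. The 4E-BPs occupy the surface of eIF4E that eIF4G would otherwise bind, and phosphorylation by the kinase complex mTORC1 releases them. eIF4G2, also called DAP5, resembles the C-terminal part of eIF4G1 but has no eIF4E-binding site, and eIF4E2 (4EHP) is a cap-binding relative of eIF4E that does not bind eIF4G1.

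The RefSeq promoter table (GRCm38.p6) held 8 of the 10 genes, all but Eif4g2 and Eif4ebp1. The hexamer CACGTG is the E-box that MYC and related factors recognise, and it reads the same on both strands. It occurred within the 250 bases before the start of Eif4e, Eif4a1 and Eif4g1, which each encode a subunit of eIF4F. None of the other 5 held it, among them Eif4a2 and Eif4g3, which also encode an eIF4A helicase and an eIF4G scaffold. Among the 27025 genes of that table, 6.86% held it in the same window. The 4 sites are shown because they are a sequence feature that these 3 genes share. The capitals mark the E-box, each sequence is on the strand of its gene, and 20 bases are given on either side.
Eif4e, chr3:138527020-138527065, plus strand, E-box starting 228 bases before the gene: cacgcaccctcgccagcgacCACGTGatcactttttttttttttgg
Eif4e, chr3:138527184-138527229, plus strand, E-box starting 64 bases before the gene: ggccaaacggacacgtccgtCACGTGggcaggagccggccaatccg
Eif4a1, chr11:69672587-69672632, minus strand, E-box starting 189 bases before the gene: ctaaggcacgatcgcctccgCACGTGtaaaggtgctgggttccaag
Eif4g1, chr16:20672653-20672698, plus strand, E-box starting 54 bases before the gene: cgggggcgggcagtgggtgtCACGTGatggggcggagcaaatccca
None of the 3 genes with these sites passed the test for a change after Eif3m siRNA in RNA or footprints at either day as fitted here. A further 5 short motifs were searched on both strands in the same window. The core of the cyclic AMP response element, CGTCA, was in 5 of the 8 promoters (19.8% of all genes), the GC box, GGGCGG, in 6 (35.4%), the CAAT box, CCAAT, in 2 (37.5%) and the ETS motif, CCGGAAG, in 2 (7.83%). The ATF4 composite site, TGATGNAA, was in none of the 8 (3.91% of all genes). Eif4ebp2, which fell, had the cyclic AMP element core, the GC box and the ETS motif. These are matches of letters only, and no binding was measured.

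Depth differed between assays and days. Assigned reads, in units of 1000000, were 27.4 to 39.02 per RNA library at day 9 and 4.96 to 26.4 at day 13, where Eif3m replicate 2 was the lowest. In footprint libraries they were 4.50 to 7.69 and 1.64 to 6.52. Eif3m itself fell in both assays and at both days, with every treated library below every control: RNA from 74.6 ± 1.096 to 7.73 ± 0.506 CPM (counts per 1000000 assigned reads, scaled; mean ± SD, n = 3 per group) at day 9 and from 291 ± 70.0 to 17.8 ± 3.55 (n = 2 per group) at day 13. RNA libraries were made with a different kit at each day (KAPA mRNA capture at day 9, NeoPrep at day 13), and in RNA a difference of day and one of kit cannot be told apart. The mice of day 9 and of day 13 also carried codes of different series. In both assays, day and series of animals therefore cannot be told apart. Hepatocyte markers were high in every library, and their summed level was lower after Eif3m siRNA: in footprints 167513 to 202879 CPM in controls against 112194 to 133011 at day 9, and 240205 to 242247 against 123309 to 152989 at day 13, with 0 of 6 markers at 0. The summed 6 Kupffer cell markers were also lower (318 to 389.9 against 255 to 295 CPM at day 9, and 240.3 to 294 against 148 to 152 at day 13, in footprints), and the 5 general leukocyte markers were higher in footprints at day 9 (32.5 to 39.1 against 57.0 to 64.2 CPM) and at day 13 (36.2 to 40.2 against 63.7 to 65.1). In day 13 RNA the summed 6 endothelial markers (179 to 181 against 125 to 126 CPM) and the 6 stellate cell markers (417 to 428 against 287 to 309.7) were lower. The part of these differences in the results below was not tested. Levels below are CPM scaled with edgeR's TMM factors within an assay. They are relative to the other genes of a library, so a change in total RNA or total footprints per liver would not show. Changes are log2 of the Eif3m siRNA level over control. A gene is said to have risen or fallen where the edgeR quasi-likelihood adjusted p was below 0.05 over all genes tested.

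Eif4g2 rose and Eif4ebp2 fell; the other 8 genes did not pass the test in RNA or footprints at either day, although some did under other settings. Eif4g2 rose in all 4 comparisons, by 1.59-fold and 2.45-fold in RNA and 1.75-fold and 2.94-fold in footprints at days 9 and 13. Eif4ebp2 fell in footprints at both days, 2.78-fold and 1.89-fold, and in RNA at day 13, 2.49-fold. In RNA at day 9, 1 of the 10 genes rose and 0 fell, where 2.48% of the 16444 genes tested rose and 3.19% fell (5.67% in all). At day 13, 1 of 10 rose and 1 fell in RNA, where 6.09% of all genes rose and 9.87% fell (16.0% in all). The members' counts were again 1 and 1 in footprints at day 9, where 6.84% of 12213 genes rose and 7.90% fell (14.7%), and at day 13, where 6.12% rose and 6.28% fell (12.4%). Of the differences between days, 0 of the 10 passed in RNA (1.23% of all genes) and 0 in footprints (0.819%). The members' share, 1 or 2 of 10, therefore lay near the share of all genes that changed. The median change of the 10 genes was 0.01 and 0.17 in RNA and 0.18 and 0.34 in footprints at days 9 and 13, and the medians over all genes tested were -0.00, -0.16, 0.02 and 0.02. These counts rest on TMM scaling. With library totals alone, which moved the all-gene median to 0.25 and 0.34 in footprints, 5 members rose and 1 fell at day 9, and 6 rose and 0 fell at day 13.

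**Figure D1:**
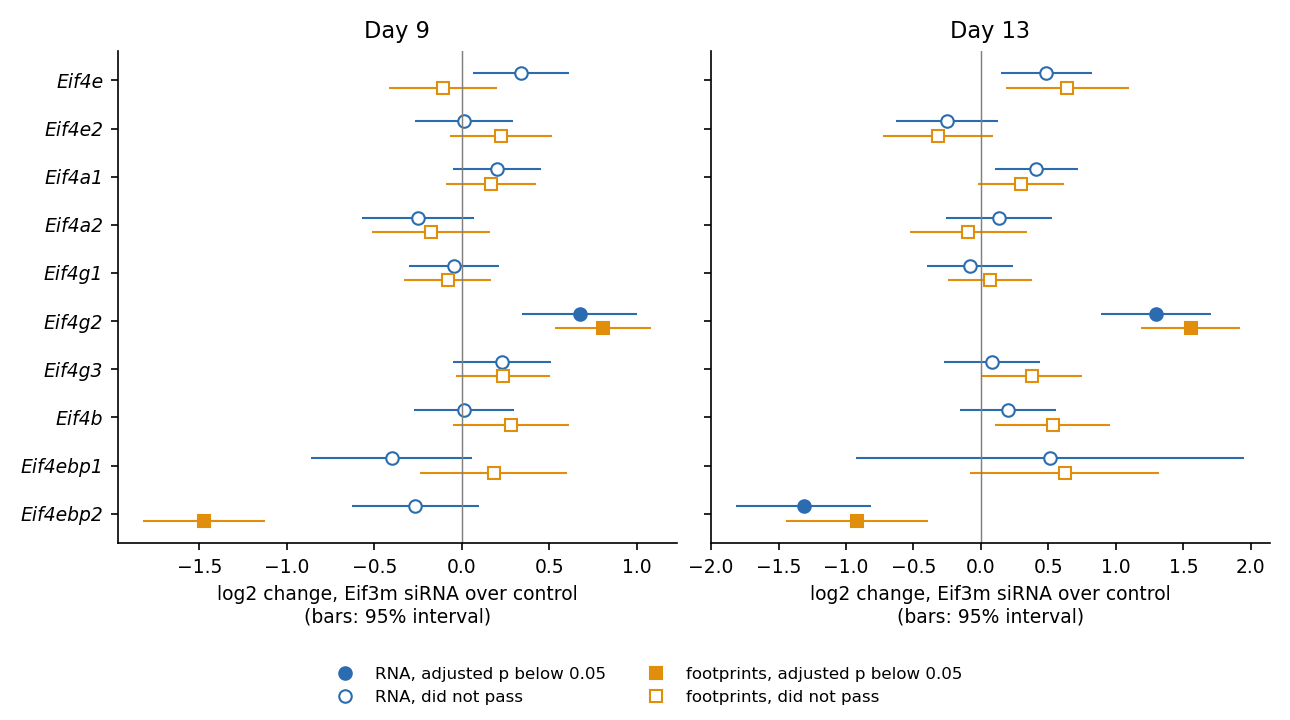
Log2 change of each of the 10 genes after Eif3m siRNA over control at day 9 (left, 3 against 3 mice) and day 13 (right, 2 against 2), in RNA (circles) and footprints (squares); bars are 95% intervals and filled symbols passed the edgeR test. Eif4g2 lies to the right in all 4 comparisons, Eif4ebp2 to the left with RNA at day 9 open at -0.27, and Eif4g1 lies within 0.1 of 0 throughout.

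Eif4g2 encodes the eIF4G relative that supports initiation without eIF4E binding. In day 9 RNA it stood at 465, 525 and 544 CPM in the controls and at 784, 871 and 791 after Eif3m siRNA. The groups did not overlap, which held for 6 of the 10 genes and for 39.3% of all genes in this comparison. The log2 change was 0.67 (SE 0.15, 95% interval 0.34 to 1.00, edgeR adjusted p = 0.022). That call was lost when any 1 of the 6 day 9 libraries was left out (adjusted p = 0.055 to 0.097, log2 change 0.60 to 0.72). In day 13 RNA the controls were at 787 and 1060.4 CPM and the treated livers at 2528 and 2005. Both treated libraries were well above both controls, as groups did not overlap for 4 of the 10 genes and 47.2% of all genes, with a log2 change of 1.29 (SE 0.19, interval 0.89 to 1.70, edgeR adjusted p = 0.00086).

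Footprints on Eif4g2 were higher as well. At day 9 the controls held 157, 136 and 152 CPM and the treated livers 210.4, 298 and 270.3, a log2 change of 0.81 (SE 0.13, interval 0.53 to 1.08, edgeR adjusted p = 0.00033). At day 13 they held 81.6 and 82.4 CPM against 234 and 247, a log2 change of 1.55 (SE 0.17, interval 1.19 to 1.92, edgeR adjusted p = 9e-06). Every treated library was above every control at each day. The footprint groups did not overlap for 3 of the 10 genes at day 9 (32.0% of all genes) and for 8 of 10 at day 13 (55.4%). The calls in day 13 RNA and in footprints at both days were kept under each of the 17 alternatives tried. The change was nominally greater at day 13 than at day 9, by 0.62 in RNA (SE 0.24, adjusted p = 0.2) and 0.74 in footprints (SE 0.22, adjusted p = 0.13), and neither difference passed the edgeR test. Its footprint change was close to its RNA change. Translational efficiency, the footprint change minus the RNA change, was 0.12 (SE 0.20, interval -0.30 to 0.54) at day 9 and 0.18 (SE 0.26, interval -0.35 to 0.71) at day 13, with edgeR adjusted p = 1 and 0.9.

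Eif4ebp2 encodes a 4E-BP, a repressor of the eIF4E to eIF4G contact. Its day 9 RNA was at 27.1, 32.0 and 34.9 CPM in the controls and at 25.2, 26.2 and 26.8 after Eif3m siRNA. The treated livers lay just under the lowest control, and the log2 change of -0.27 did not pass (SE 0.17, interval -0.63 to 0.10, edgeR adjusted p = 0.41). Its day 9 footprints were at 32.4, 23.2 and 27.004 CPM in the controls and at 10.4, 9.42 and 9.98 after Eif3m siRNA. No treated library came near a control: the assigned counts were 169 to 216 in controls and 51 to 65 in treated livers. The log2 change was -1.47 (SE 0.17, interval -1.82 to -1.13, edgeR adjusted p = 9.9e-06), which placed Eif4ebp2 at percentile 0.696 of the changes of all 12213 genes. This call was kept under all 17 alternatives, with an adjusted p of at most 0.00014.

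At day 13 the RNA of Eif4ebp2 was low as well. The controls were at 28.5 and 18.1 CPM and the treated livers at 8.61 and 10.52, a log2 change of -1.31 (SE 0.23, interval -1.81 to -0.81, edgeR adjusted p = 0.0029), and the call was kept under all 17 alternatives. The 2 controls differed from each other but both exceeded both treated livers. Day 13 footprints were at 20.3 and 21.8 CPM in the controls and at 12.6 and 10.502 after Eif3m siRNA. These rest on few reads, 35 and 41 counts in the controls and 22 and 77 in the treated livers. The log2 change was -0.92 (SE 0.25, interval -1.44 to -0.39, edgeR adjusted p = 0.02). It no longer passed with library totals alone (-0.59, adjusted p = 0.11), nor without control replicate 1 (adjusted p = 0.081), control replicate 2 (0.14) or Eif3m replicate 2 (-0.73, adjusted p = 0.32).

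**Figure D2:**
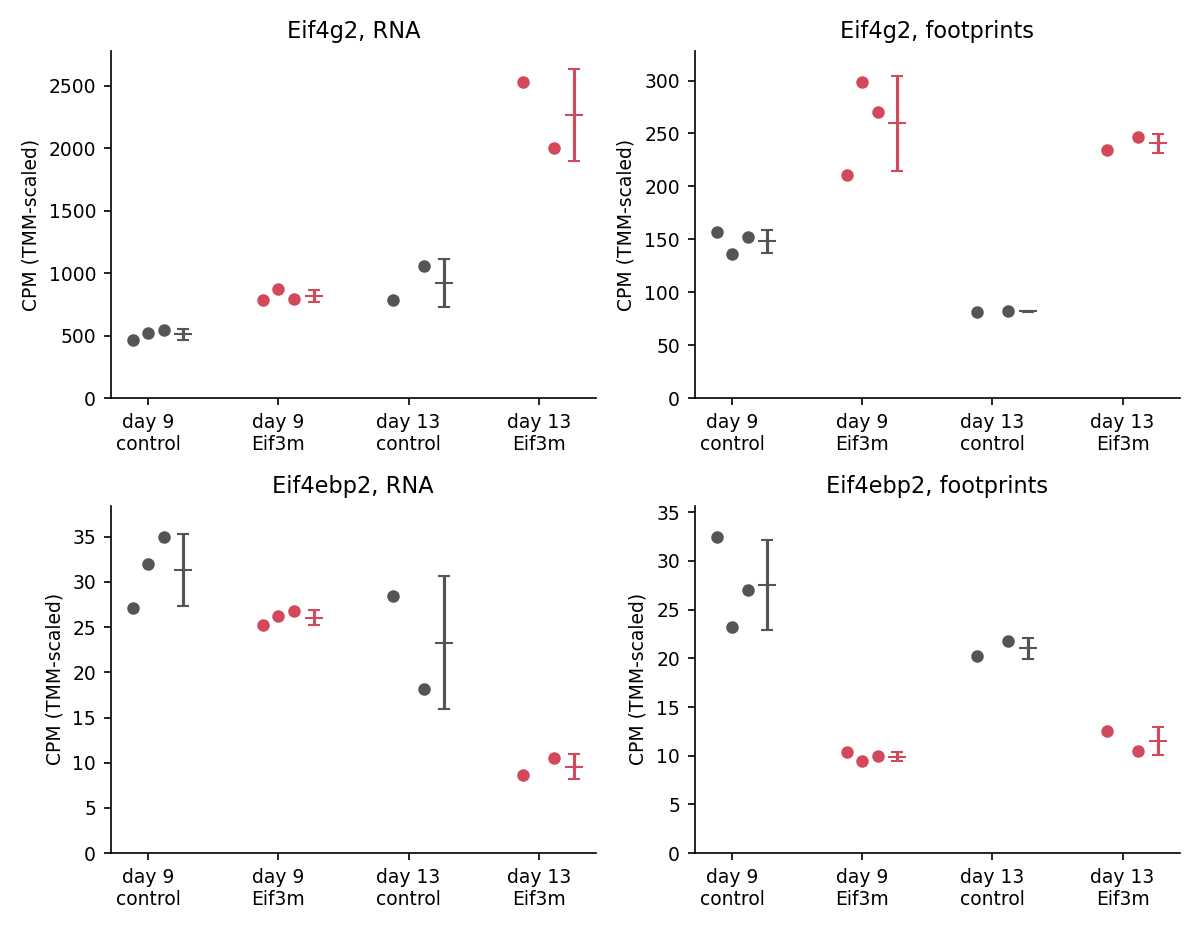
CPM of Eif4g2 (top) and Eif4ebp2 (bottom) in RNA (left) and footprints (right), one point per library, with the mean and SD beside each group; all axes start at 0. Eif4g2 is higher after Eif3m siRNA in all 4 pairs of groups, whereas Eif4ebp2 RNA at day 9 shows 25.2 to 26.8 CPM against 27.1 to 34.9 in controls while its footprints show 9.42 to 10.4 against 23.2 to 32.4.

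At day 9 the estimated drop of Eif4ebp2 was greater in footprints than in RNA. Within each animal, log2 of footprint CPM over RNA CPM was 0.26, -0.45 and -0.37 in the controls and -1.24, -1.43 and -1.38 after Eif3m siRNA. The 2 groups did not overlap, which was the case for 4 of the 10 genes and for 16.7% of all genes. The efficiency change was -1.22 (SE 0.24, interval -1.71 to -0.73), at percentile 1.24 of all genes. It did not pass over the 14236 genes tested (edgeR unadjusted p = 2.8e-05, adjusted p = 0.13). Of these, 0 genes passed, 692 (4.86%) had an unadjusted p below 0.05 and DESeq2 called 4. With the animal as a block, which uses the fact that the RNA and footprint library came from the same liver, the change was again -1.22 and passed (edgeR adjusted p = 0.033). Over the alternatives the adjusted p ran from 0.0026 to 0.98 and the change from -1.35 to -0.9995.

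At day 13 no such drop was measured. The per-animal log2 ratios of Eif4ebp2 were -0.48 and 0.26 in the controls and 0.52 and -0.00 after Eif3m siRNA, which overlap (3 of the 10 genes and 38.4% of all genes did not), and the efficiency change was 0.31 (SE 0.35, interval -0.40 to 1.03, edgeR adjusted p = 0.84). The difference between the days was 1.54 (SE 0.42, interval 0.67 to 2.40) and did not pass the test over all genes (edgeR adjusted p = 0.66); without day 13 control replicate 2 it did (adjusted p = 0.04). In RNA the change was lower at day 13 than at day 9 by 1.05 on the log2 scale, which did not pass (SE 0.29, edgeR adjusted p = 0.087), and the 2 footprint changes differed by 0.56 (SE 0.30, adjusted p = 0.47). Efficiency changes that passed were 0% of all genes at day 9 and 0.0211% at day 13, and 0 of the 10 members passed at either.

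**Figure D3:**
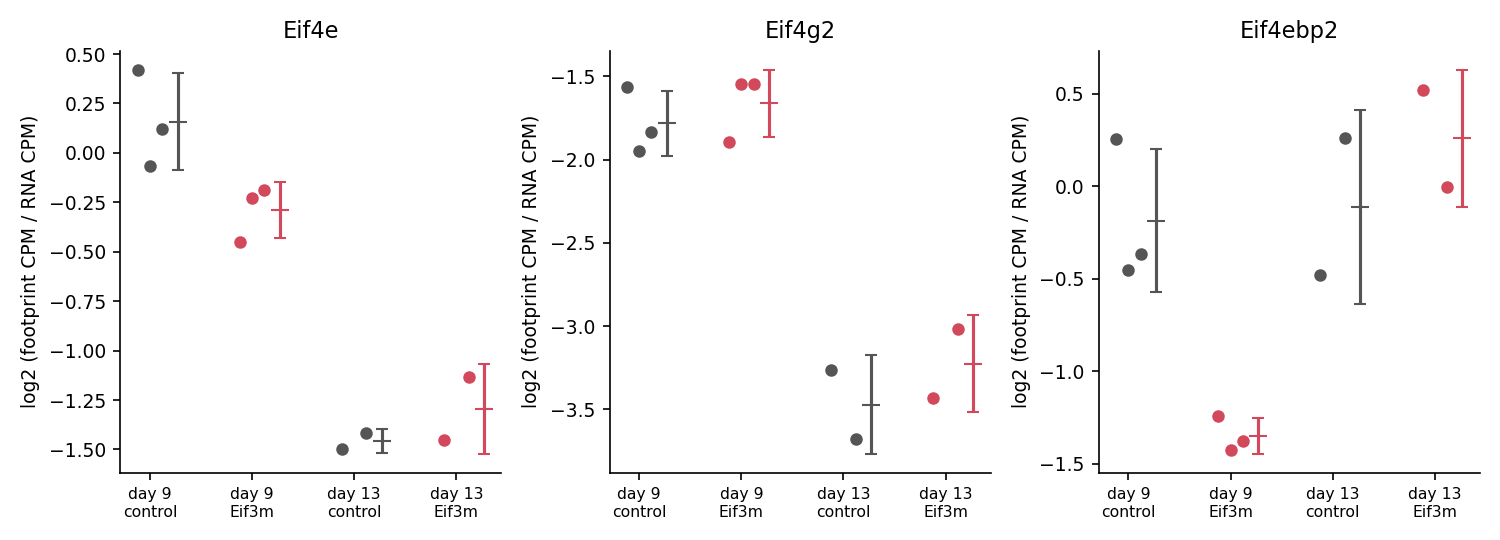
Log2 of footprint CPM over RNA CPM in each animal for Eif4e, Eif4g2 and Eif4ebp2, one point per animal, with the mean and SD beside each group; each panel has its own axis. For Eif4ebp2 the 3 day 9 Eif3m animals lie between -1.43 and -1.24, below all 3 controls, and the day 13 groups overlap; between days, the ratio also differs by RNA kit.

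The cap-binding protein genes Eif4e and Eif4e2 did not pass. Eif4e RNA was at 20.7, 23.5 and 25.1 CPM in day 9 controls and 28.0, 29.8 and 29.9 after Eif3m siRNA, and at 56.6 and 56.1 against 87.0 and 70.1 at day 13. Treated livers were above controls at both days, with log2 changes of 0.34 (SE 0.13, edgeR adjusted p = 0.14) and 0.48 (SE 0.16, adjusted p = 0.052). The day 13 RNA change of Eif4e passed in 11 of 17 alternatives, among them library totals, DESeq2 and leaving out any 1 of the 6 day 9 libraries (edgeR adjusted p = 0.027 to 0.048), and its adjusted p was 0.29 without day 13 Eif3m replicate 1. The day 9 RNA change passed with library totals (adjusted p = 0.036) and with each day fitted alone (0.026). Footprints on Eif4e overlapped at day 9 (27.9, 22.4 and 27.4 CPM against 20.4, 25.4 and 26.2; log2 change -0.11, interval -0.42 to 0.20). At day 13 they were at 19.7 and 20.7 CPM against 31.4 and 31.7, a log2 change of 0.64 that did not pass (SE 0.22, edgeR adjusted p = 0.062) and that passed in 4 of 17 alternatives. The efficiency of Eif4e was -0.46 at day 9 (SE 0.19, adjusted p = 0.99), with per-animal values of 0.42, -0.07 and 0.12 in controls and -0.45, -0.23 and -0.19 after Eif3m siRNA, and 0.08 (SE 0.26) at day 13. Eif4e2 changed little in RNA (0.01 and -0.25). Its footprints lay at 21.8, 20.4 and 21.0 CPM against 26.6, 22.8 and 24.3 at day 9 (log2 change 0.22, edgeR adjusted p = 0.3) and at 31.6 and 31.4 against 22.9 and 26.5 at day 13 (-0.32, adjusted p = 0.34). The 2 days thus lay on opposite sides of 0, and the difference of -0.54 did not pass (SE 0.24, adjusted p = 0.36).

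Among the helicase genes, Eif4a1 stood above the controls in RNA at both days without passing. Its day 13 RNA was at 400.4 and 447 CPM in the controls and 538 and 589 after Eif3m siRNA (log2 change 0.41, SE 0.14, edgeR adjusted p = 0.069), and it passed in 5 of 17 alternatives: DESeq2, DESeq2 size factors, library totals, the filter of 5 CPM and without day 13 control replicate 2. Day 13 footprints were at 390.4 and 405 CPM against 500.5 and 479 (0.30, SE 0.15, adjusted p = 0.23). At day 9 the changes of Eif4a1 were 0.20 in RNA and 0.17 in footprints, with intervals of -0.05 to 0.45 and -0.09 to 0.42. Eif4a2, the paralog with the same helicase activity, gave -0.25 and 0.13 in RNA and -0.18 and -0.09 in footprints at days 9 and 13, and all 4 of its intervals spanned 0. Eif4a1 and Eif4a2 are close copies, and how the counting split reads between them is not known here. Counts that were not whole numbers (tolerance 0.01) occurred in 16 of 20 libraries for each, in 17 for Eif4g1 and in 4 to 12 for the other members, and their cause was not tested. Eif4b, the helicase cofactor, had footprints of 119 and 145 CPM in day 13 controls and 186 and 195 after Eif3m siRNA, a log2 change of 0.53 that did not pass (SE 0.20, interval 0.11 to 0.95, edgeR adjusted p = 0.098) and that passed in 3 of 17 alternatives. Its other 3 changes were 0.01 and 0.20 in RNA and 0.28 in day 9 footprints.

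Eif4g1, the main eIF4G scaffold, had the narrowest set of changes. In RNA they were -0.05 (interval -0.30 to 0.21) and -0.08 (-0.40 to 0.23) at days 9 and 13, and in footprints -0.08 (-0.33 to 0.17) and 0.07 (-0.24 to 0.38). These intervals leave room for changes of up to 0.40 on the log2 scale in either direction. Its level was 554 ± 21.9 CPM in day 9 control RNA and 537 ± 13.9 after Eif3m siRNA, and 351 ± 29.0 and 332 ± 15.2 CPM in footprints (SD, n = 3). Eif4g3, a second cap-complex scaffold, gave 0.23 and 0.08 in RNA and 0.24 and 0.38 in footprints. Its day 13 footprints were at 48.1 and 49.2 CPM against 65.4 and 61.4, without overlap, and did not pass (edgeR adjusted p = 0.2).

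Eif4ebp1, the 4E-BP paralog of Eif4ebp2, did not fall with it in footprints. Footprints on Eif4ebp1 were at 18.3, 12.9 and 12.2 CPM against 20.7, 12.03 and 17.0 at day 9 and at 9.84 and 9.83 against 13.1 and 15.8 at day 13, for log2 changes of 0.18 (interval -0.24 to 0.60) and 0.62 (interval -0.08 to 1.32; edgeR adjusted p = 0.59 and 0.26). Its day 9 RNA was at 18.6, 18.8 and 17.5 CPM in controls and 14.8, 11.2 and 15.7 after Eif3m siRNA, all lower, with a log2 change of -0.40 (SE 0.21, edgeR adjusted p = 0.32, and 0.042 with each day fitted alone). In day 13 RNA it was close to undetected, at 3.5 to 11 assigned counts per library, and the interval of the change ran from -0.92 to 1.95. Day 13 footprints on it rest on 17 to 116 counts.

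Ratios between members within a library, taken as log2 of CPM + 0.5 for 6 pairs, hardly depend on the scaling between libraries. No test was run on them, since the pairs were chosen with earlier results of these data known. An exact permutation test of 3 against 3 also cannot go below p = 0.1. Because genes differ in length, only the change of a ratio between groups is read. The share of all gene pairs that do not overlap was not computed, and single genes already separate in 32.0% to 55.4% of cases in the same comparisons. A ratio with Eif4g2 or Eif4ebp2 also carries the change of that gene given above and is no separate evidence. The footprint ratio of Eif4e to its repressor Eif4ebp2 was -0.22, -0.05 and 0.02 on the log2 scale in day 9 controls and 0.95, 1.38 and 1.35 after Eif3m siRNA. At day 13 it was -0.04 and -0.07 against 1.29 and 1.55. The mean difference was 1.31 and 1.47 in footprints and 0.59 and 1.68 in RNA, with no overlap in any of the 4. Footprints on Eif4ebp1 relative to Eif4ebp2 moved by 1.601 and 1.37 without overlap; in RNA it moved by -0.15 at day 9, with overlap, and by 1.63 at day 13, where Eif4ebp1 was close to undetected (2.14 from raw counts plus 1). Eif4g1 relative to Eif4g2 moved by -0.87 and -1.47 in footprints and by -0.72 and -1.38 in RNA, without overlap in any of the 4. The control values of that ratio in footprints were 1.24 ± 0.182 at day 9 (SD, n = 3) and 1.87 ± 0.180 at day 13 (n = 2), and after Eif3m siRNA they were 0.37 ± 0.228 and 0.39 ± 0.114. Eif4a1 relative to Eif4a2 moved by 0.33 and 0.37 in footprints and by 0.46 and 0.27 in RNA, with overlap in day 9 footprints and day 13 RNA. Eif4g1 relative to Eif4g3 moved by -0.31 at both days in footprints (overlapping at day 9) and by -0.27 and -0.17 in RNA. Eif4e relative to Eif4e2 moved by -0.33 with overlap and then by 0.98 in footprints, and by 0.33 and 0.71 in RNA.

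**Figure D4:**
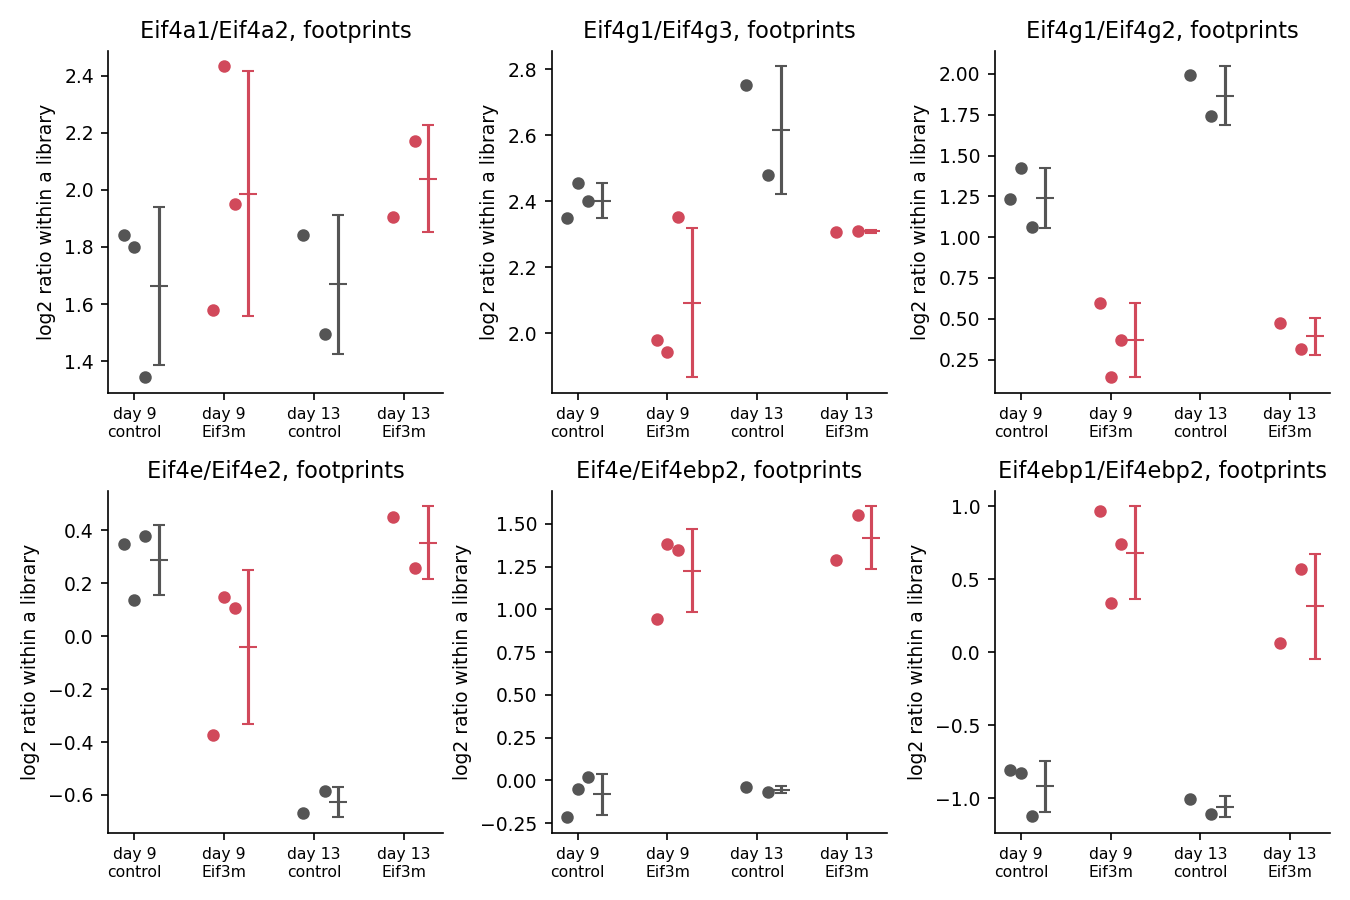
Log2 ratio of footprint CPM for 6 pairs of members, one point per library, with the mean and SD beside each group; each panel has its own axis and only differences between groups can be read. Eif4e/Eif4ebp2 and Eif4ebp1/Eif4ebp2 are higher and Eif4g1/Eif4g2 lower in every Eif3m library of each day, while Eif4a1/Eif4a2 overlaps at day 9.

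The control livers alone differed between days in several members, where day and series of animals cannot be told apart in either assay. In footprints, day 13 controls against day 9 controls showed 2 of the 10 genes higher and 1 lower, where 5.48% of 12213 genes were higher and 4.88% lower (10.4% in all), and 7 of the 10 did not overlap (47.9% of all genes). Eif4g2 fell from 148 ± 11.0 (SD, n = 3) to 82.0 ± 0.508 CPM (n = 2), a log2 change of -0.85 (SE 0.16, edgeR adjusted p = 0.0022) that was kept under all 16 alternatives. The lower control level at day 13 is the base of the fold change given for day 13 footprints: the treated livers were at 259.6 ± 44.9 CPM at day 9 and 241 ± 8.93 at day 13. Eif4e2 rose by 0.58 (SE 0.18, adjusted p = 0.041) and Eif4a1 by 0.44 (SE 0.14, adjusted p = 0.044); both calls were lost with library totals alone, with no filter, with the replicate block (adjusted p = 0.28 and 0.29), and when any 1 of the 5 control libraries was left out (adjusted p = 0.07 to 0.26), as also without day 9 Eif3m replicate 3 or either day 13 Eif3m replicate (0.051 to 0.062). With DESeq2 the Eif4e2 call was lost too (adjusted p = 0.097). Mean control RNA moved opposite to mean control footprints for 4 members: Eif4g2 RNA was at 511 ± 41.4 CPM at day 9 and 924 ± 193 at day 13, Eif4e at 23.1 ± 2.23 and 56.4 ± 0.332, Eif4e2 at 36.4 ± 1.35 and 15.5 ± 2.96, and Eif4b at 219 ± 14.96 and 88.3 ± 13.0. Eif4ebp1 was lower at day 13 in both assays, at 18.3 ± 0.705 and 0.346 ± 0.250 CPM in RNA and at 14.4 ± 3.37 and 9.84 ± 0.00932 CPM in footprints. The RNA kit changed with the day and these RNA differences were not tested.

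Other genes of the pathway were taken from 3 lists. Of 5 further eIF4 family genes, 4 were tested; 1 rose, Eif4h, an eIF4A stimulator, in day 13 RNA (log2 change 0.43, SE 0.13, edgeR adjusted p = 0.047), a call kept in 11 of 17 alternatives, and the others did not pass in any siRNA comparison. Of 17 partners and regulators of cap binding, 0 rose and 1 fell in day 9 RNA (2.48% and 3.19% of all genes). In day 13 RNA 0 rose and 3 fell (6.09% and 9.87% of all genes). In day 9 footprints 1 rose and 2 fell (6.84% and 7.90%), and in day 13 footprints 0 rose and 1 fell (6.12% and 6.28%). Whether a list held more changed genes than the rest of the table was not tested. The repeated one was Pdcd4, which encodes an inhibitor of the eIF4A helicase. Its footprints fell from 349.6 ± 44.6 to 201 ± 24.1 CPM at day 9 (SD, n = 3; log2 change -0.79, SE 0.14, edgeR adjusted p = 0.00072) and from 212 ± 50.7 to 105 ± 6.13 CPM at day 13 (n = 2; -1.02, SE 0.18, adjusted p = 0.00094). Pdcd4 RNA fell from 152 ± 1.21 to 97.4 ± 2.22 CPM at day 9 (-0.65, SE 0.11, adjusted p = 0.0056) and did not pass at day 13, at 190.2 ± 10.2 against 152 ± 8.24 CPM. All 3 calls of Pdcd4 were kept under each of the 17 alternatives.

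The other regulators that passed did so once each. In day 9 footprints Mknk2, a kinase that phosphorylates eIF4E, fell (log2 change -0.59, SE 0.16, edgeR adjusted p = 0.015) and Ncbp1, a subunit of the nuclear cap-binding complex, rose (0.57, SE 0.15, adjusted p = 0.013). In day 13 RNA Cyfip1, an eIF4E-binding partner of FMRP, fell by 0.54 on the log2 scale (adjusted p = 0.021), Angel1, another eIF4E-binding protein, by 1.14 (adjusted p = 0.03) and Rps6kb2, an S6 kinase, by 0.94 (adjusted p = 0.041). The last 2 rest on few reads, with 6.5 and 28.5 counts of Angel1 and 10 and 57 of Rps6kb2 in the treated livers. The Mknk2 call was kept in 13 and the Ncbp1 call in 16 of 17 alternatives. The Cyfip1, Angel1 and Rps6kb2 calls were kept in 6 of 17, 8 of 16 and 8 of 17 alternatives. The median change over the 17 regulators was 0.03 and -0.44 in RNA and -0.10 and -0.21 in footprints at days 9 and 13, against all-gene medians of -0.00, -0.16, 0.02 and 0.02.

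Poly(A)-binding proteins join the other end of the mRNA to eIF4G. Of 5 genes on that list, 3 rose and 0 fell in RNA at each day: Pabpc1 (log2 change 0.67 and 1.01), Pabpc4 (0.77 and 1.62) and Paip1 (0.53 and 0.85), the first 2 being poly(A)-binding proteins and the third their coactivator. Of all genes tested, 2.48% rose in day 9 RNA and 6.09% in day 13 RNA. In day 9 footprints Pabpc4 (0.93) and Paip1 (0.44) rose, as did 6.84% of all genes, and in day 13 footprints 0 of the 5 passed (12.4% of all genes did). Pabpc1 was the list's one efficiency call: at day 13 its RNA was at 661 ± 29.0 CPM in controls and 1332 ± 219 after Eif3m siRNA (SD, n = 2), while its footprints were at 182 ± 73.9 CPM in controls and 88.8 ± 4.36 after Eif3m siRNA, an efficiency change of -2.14 (SE 0.36, edgeR adjusted p = 0.03) that was kept in 12 of 18 alternatives. Control footprints on Pabpc1 were at 58.6 ± 18.0 CPM at day 9 (n = 3), against 103 ± 27.1 after Eif3m siRNA. The day 13 control footprints lay above those of day 9, with the 2 libraries at 130 and 234 CPM. The day 13 efficiency change holds both the higher RNA and the lower footprints of the treated livers. Its call was lost with the day fitted alone (edgeR adjusted p = 0.054) and without day 9 Eif3m replicate 3 (0.095). The call was also lost when either treated day 13 animal was left out, which left 1 in the group and gave a change of -1.93 or -2.18. Of the day 9 calls, Paip1 in RNA was kept in 10 of 17 alternatives and in footprints in 6 of 17.

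The genes whose footprint levels were most like those of the changed members were found by Pearson's r over the 10 footprint libraries, among genes with a mean of at least 20 CPM. Eif4g2 was nearest to Usp22 (r = 0.967), Jak1 (0.967) and Eprs (0.964). Eif4ebp2 was nearest to Cited2 (r = 0.973), Itm2b (0.972) and Apoa2 (0.969). Among the members that passed only between control days, Eif4a1 was nearest to Arf1 (r = 0.976), Psmc5 (0.961) and Cct7 (0.956), and Eif4e2 to Syvn1 (0.937), Hspg2 (0.937) and Col1a1 (0.935). The libraries share their siRNA groups and days, so these values describe shared patterns over the same 10 livers and carry no test.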

How the data were processed

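RNA-seq and ribosome profiling (ART-seq) libraries of ground mouse liver were analysed from 1 gene table deposited by the authors, whose values are expected counts (estimated, not always whole). Cutadapt, Bowtie and Bowtie2 are named in the submitters' processing notes; the counting rule and the genome build were not given in the sources used here. Rows are gene symbols. Counts were rounded, filtered (filterByExpr), scaled by TMM within an assay and tested with edgeR 4.0.16 (R 4.3.3) by robust quasi-likelihood F tests, both days in 1 fit, with Benjamini-Hochberg adjustment over all genes and a two-sided threshold of 0.05. Standard errors are the log2 change over the square root of F. Efficiency was the assay by siRNA interaction over all 20 libraries. RNA and footprint libraries of an animal were linked by the animal code in the labels; equal replicate numbers of different groups mark different mice, and same-number deviations did not correlate (r from -0.11 to 0.22), so they were not treated as pairs. Likeness used log2(CPM + 0.5). Alternatives were DESeq2 1.42.0, other scalings and filters, blocks, single-day fits and leaving out each library. The code was tested on simulated data. Per the labels, the day 9 RNA libraries also belong to an earlier series. All 10 members were named by rule, as were list genes that passed and the 3 nearest genes of each member that passed in footprints. Members and lists were chosen with earlier results of these data known. The labels do not state more on the mice than separate codes, so p-values measure the spread between these libraries.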

Additional observations from a re-analysis of the deposited data

How the results depend on the processing

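No member's called change turned its direction under any alternative; of 1476 uncalled member values, 84 changed sign between settings that did not call them. Members passing in day 9 RNA numbered 1, against 2 with library totals, 0 with the replicate block, 3 with each day fitted alone and 0 to 1 with a library left out. In day 13 RNA 2 passed, against 4 with DESeq2 size factors, library totals, a mean of at least 5 CPM or DESeq2 and 2 to 3 with a library left out; for the difference between days 0 passed, against 1 with no filter or with DESeq2 and 0 to 2 with a library left out. In footprints 2 passed at day 9, against 6 with library totals. At day 13, 2 passed, against 6 with library totals, 4 with the day alone, 3 with no filter or with a mean of at least 5 CPM, and 1 to 3 with a library left out. The footprint difference gave 0, against 1 with no filter. Control days gave 3, against 1 with library totals, no filter or the replicate block, 2 with DESeq2 and 1 to 3 with a library left out. Efficiency at day 9 gave 0, against 1 with no filter, DESeq2, the animal as replicate block, or the day alone and 0 to 1 with an animal left out; its difference between days gave 0 to 1. The replicate block changed no other member's call. Over all genes, counts called ranged over the alternatives from 292 to 3445 in day 9 RNA (932 as reported), 968 to 4266 in day 13 RNA (2625), 0 to 2065 for the RNA difference (202), 1129 to 2742 in day 9 footprints (1800), 429 to 2355 in day 13 footprints (1515), 7 to 242 for the footprint difference (100), 274 to 1658 between control days (1265), and 0 to 18, 0 to 438 and 0 to 59 for efficiency at day 9 (0), day 13 (3) and their difference (0). Rises were 43.7% of day 9 RNA calls, against 70.8% with library totals; 38.2% at day 13, against 49.1% with DESeq2 size factors, 59.7% with library totals, 48.4% with the 5 CPM filter or DESeq2 and 54.4% with the day alone; and in footprints 46.4% and 49.4%, against 83.5% and 85.0% with library totals. The cause was not tested. Few counts limit Eif4ebp1 in day 13 RNA and footprints and Eif4ebp2 in day 13 footprints, and of the list genes Angel1 and Rps6kb2 in day 13 RNA.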
